A study of Homo sapiens with 6 samples.

Results

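The collagen genes described here are the 44 genes, of 57773 in the deposited count table, whose symbol has the form COL, a type number, A and a chain number. All 44 were kept, whatever their level. RNA was sequenced from 6 cultures of HepG2, a line established from a human hepatocellular carcinoma: 3 cultures received recombinant human TGFβ1 ligand at 5 ng/mL and 3 received the vehicle, all for 3 h. Both groups are cultures of this 1 line, and the labels name no other cell type in them. The cells were grown with serum and, per the study's methods, washed and moved to serum-free medium before TGFβ or vehicle was added, so all cultures of both groups lacked serum during the treatment. The comparison asks which collagen genes changed in RNA level within 3 h of TGFβ. A culture had from 60815385 to 100099136 reads assigned to genes.

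Collagens are extracellular proteins built from 3 chains wound into a helix, and each gene encodes 1 chain. Fibrillar collagens assemble into the fibrils of bone, skin, cartilage and scar, type IV collagens form the network of basement membranes, and the remaining types decorate fibrils, anchor membranes or cross the cell surface. In liver, TGFβ is best known as the signal under which stellate cells and fibroblasts deposit collagen, while hepatocytes contribute less.

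By type, 11 of the 44 genes are fibrillar (types 1, 2, 3, 5, 11, 24 and 27), 6 encode type 4 chains and 27 belong to other types. Reads were found for 41 genes, and COL6A5, COL22A1 and COL25A1 had 0 reads in every culture. Taken alone, 0 reads in a library allow for a mean of up to 3 reads, and 0 in all 6 together allow for less. At least 1 read in each of the 6 cultures was found for 28 genes. A mean of at least 1 RPKM (reads scaled by coding length and library size, as deposited by the authors) in either group was reached by 10 genes and a mean of at least 0.1 RPKM by 16. For the comparison, 24 genes passed edgeR's filter on low counts: 7 of 11 fibrillar, 4 of 6 type 4 and 13 of 27 others. The filter acts on the level of a gene, so these 24 stand for the better expressed collagens and not for all 44.

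Collagen RNA was a small share of the total, between 0.0809% and 0.116% of the reads on genes per culture. COL18A1, COL9A3 and COL27A1 together held between 72.7% and 76.0% of the summed collagen RPKM of a culture. Fibrillar genes held between 10.7% and 13.9% of that sum, type 4 genes between 7.90% and 10.97%, and the other types between 75.1% and 81.0%. COL1A1 was thus not among the leading collagens of these cells: 10 collagen genes had a higher mean RPKM.

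**Figure D1:**
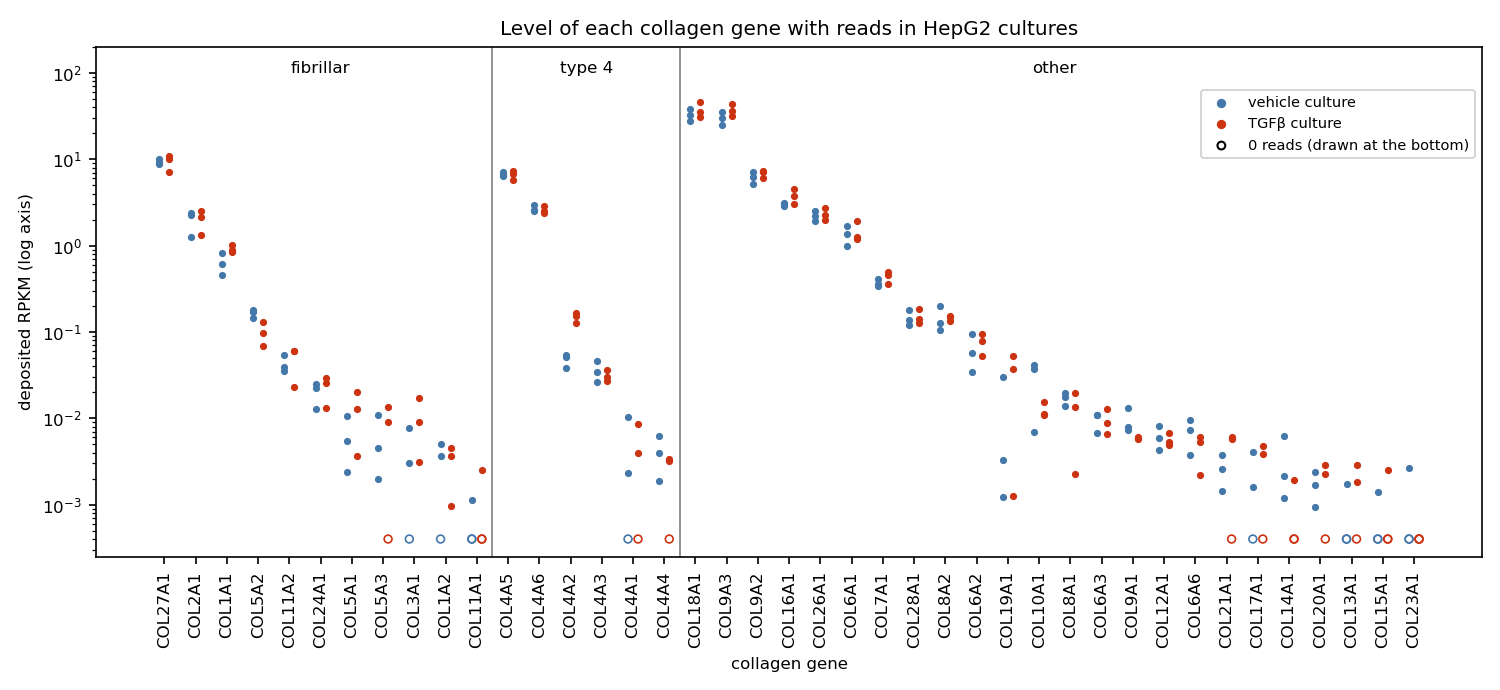
Deposited RPKM (log axis) of each of the 41 collagen genes with reads, grouped as fibrillar, type 4 and other, with 1 point per culture (blue, vehicle; red, TGFβ; open circles at the bottom mark 0 reads). COL18A1 and COL9A3 lie above 25 RPKM in every culture, whereas COL1A2, COL3A1 and COL4A1 lie below 0.02, and COL4A2 is the type 4 gene whose red points stand clear above the blue.

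The counts in this paragraph do not use the culture number in the model, and those that do are in the next paragraph. FDR here is the Benjamini-Hochberg adjusted p of edgeR's quasi-likelihood test over 22747 genes. Among collagen genes COL4A2 alone, 1 of 24, rose with TGFβ at an FDR under 0.05, and 0 fell (background 1.01%). The count of falls was also 0 with DESeq2, limma-voom and edgeR's exact test. The single rise is 4.17% of the tested collagen genes, against 4.12% of all tested genes called in either direction and 3.11% called higher. At an unadjusted p under 0.05 there were 5 collagen genes, 4 with higher and 1 with lower values, beside 13.7% of all genes in either direction, 8.69% with higher and 4.97% with lower values. Without overlap between the 3 vehicle and the 3 TGFβ cultures were 4 of the 24 genes, or 16.7%, against 18.6% of all genes. In 3 of them the TGFβ cultures were above (10.4% of all genes) and in 1 below (8.23%). In all 3 numbered pairs 7 genes were higher and 1 was lower, against 23.3% and 20.9% of all genes. At the FDR threshold of this model and by overlap the shares of collagen genes were thus near the background. The shares with higher values at unadjusted p under 0.05 (16.7%), lower in all 3 pairs and with fitted values above 0 departed from it. The share with lower values at unadjusted p under 0.05, 1 of 24, was near it. Higher in all 3 pairs were 7 of 24, against 23.3%. These shares rest on 24 genes, and their departure from the background was not tested. The median log2 fold change of the 24 was 0.16, beside -0.0054 for all tested genes, and 20 of the 24 fitted values lay above 0, as did 49.0% of all genes. In bulk RNA of a culture, a change in RNA per cell and a change in the share of cells expressing the gene cannot be told apart.

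Cultures carry the numbers 1 to 3 in both groups, and those with the same number deviated together from their group means. With the number as a block in the model, 5 of the 24 genes passed the FDR threshold (20.8%), against 11.8% of all genes. COL4A2, COL1A1, COL9A3 and COL16A1 were higher (background 8.08%) and COL5A2 was lower (background 3.75%). Results with the block are therefore given beside each of these genes.

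**Figure D2:**
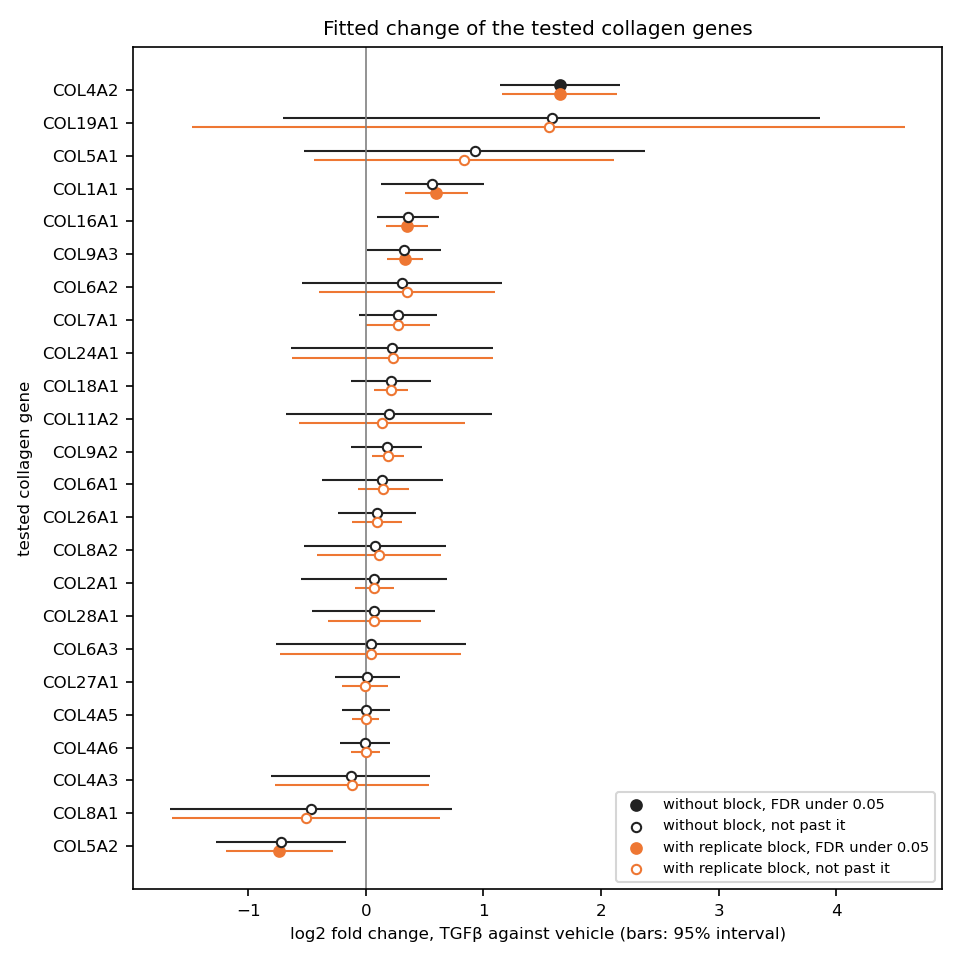
Log2 fold change (TGFβ against vehicle) of each of the 24 tested collagen genes with its 95% interval, from the model without a block (black) and with the replicate block (orange), filled where the FDR was under 0.05. COL4A2 is filled in both, COL1A1, COL9A3, COL16A1 and COL5A2 only with the block, and the intervals of COL19A1 and COL5A1 are the widest of the higher values.

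COL4A2 (ENSG00000134871, hg19 chr13:110958159-111165374, plus strand) encodes the α2 chain of the collagen IV molecule found in nearly all basement membranes. It had 46, 40 and 23 reads in vehicle cultures 1, 2 and 3, and 121, 128 and 113 reads in the TGFβ cultures. As normalized CPM (counts scaled by TMM-normalized library size) this was 0.521, 0.483 and 0.374 with vehicle and 1.25, 1.59 and 1.55 with TGFβ. The lowest TGFβ culture was above the highest vehicle culture. The group means were 0.459 ± 0.0765 and 1.46 ± 0.187 CPM (SD, n = 3), a 3.15-fold difference with a 95% interval of 2.21 to 4.49 (log2 fold change 1.66, SE 0.23, FDR 0.00294, and 0.000451 with the block). By culture number the log2 ratios were 1.26, 1.72 and 2.05. The level was low throughout, at a mean of 0.0482 RPKM with vehicle and 0.149 with TGFβ.

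The partner chain was barely detected. COL4A1 (ENSG00000187498, minus strand), which encodes the α1 chain that pairs with α2 in the same molecule, had 2, 8 and 0 reads across the vehicle cultures and 8, 3 and 0 across those given TGFβ. Both groups were near the limit of detection, and the gene was too low to be tested. The ratio of its summed reads, scaled by library size, was 1.02 with an exact 95% interval of 0.394 to 2.69, which covers counting error only. The deposited gene bodies of COL4A1 and COL4A2 run in opposite directions and overlap by 1338 bases at their starts. COL4A2-AS1, an antisense gene inside COL4A2, had 3, 0 and 4 reads across the vehicle cultures and 9, 6 and 10 across those given TGFβ, a scaled ratio of 3.32 (1.40 to 9.09, counting error only), and was also not tested. The library kit does not mark strand, so reads of COL4A2 and of this antisense gene cannot be told apart where they overlap. With TGFβ 25 reads were assigned to the antisense gene and 362 to COL4A2, and the part of antisense reads in the COL4A2 counts was not tested.

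Since COL4A1 and COL4A2 share a start region, the stretch between their RefSeq start sites (GRCh38.p14, chr13:110307157-110307284, plus strand, both start bases included) is printed here. The starts lie 126 bases apart. Capitals mark matches to CCAAT and GGGCGG.

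COL4A1-COL4A2: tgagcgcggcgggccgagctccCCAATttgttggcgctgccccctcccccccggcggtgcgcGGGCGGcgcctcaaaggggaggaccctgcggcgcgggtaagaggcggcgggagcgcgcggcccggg

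This stretch reads into COL4A1 to the left and into COL4A2 to the right, so both genes have the same letters in front of their starts. Searched on both strands, it held CCAAT once and GGGCGG once, and no match to CAGAC (the core that SMAD proteins can bind), TGANTCA (AP-1) or TATAAA. RefSeq promoter windows, from 250 bases before to 50 after a start, were at hand for 32 of the 44 collagen genes, 44 windows in all. CAGAC was in 40.9% of these windows and in 45.3% of all 35116 windows, CCAAT in 31.8% and 34.6%, GGGCGG in 54.5% and 45.0%, TATAAA in 18.2% and 11.5%, and TGANTCA in 2.27% and 7.71%. Some windows belong to the same gene and overlap. A match is a description of letters, not a binding site.

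The other type 4 chains differed from COL4A2. COL4A5 and COL4A6, whose protein chains form the α5 and α6 network of certain basement membranes, were the type 4 genes with the most RNA. COL4A5 had 76.4, 69.9 and 68.1 CPM with vehicle and 79.2, 71.1 and 64.4 with TGFβ, and the groups overlapped fully. Its log2 fold change was 0.0025 with an interval of -0.20 to 0.20. COL4A6 had 36.0, 30.0 and 30.7 CPM with vehicle and 34.8, 30.6 and 31.0 with TGFβ, and its interval was -0.22 to 0.21. The upper bound of the fold change was thus 1.15 for COL4A5 and 1.16 for COL4A6.

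COL4A5 and COL4A6 also lie head to head, 346 bases apart in the deposited coordinates, and their RPKM ratio stayed within a narrow range, COL4A6 to COL4A5 between 0.377 and 0.423 over the 6 cultures. This pair thus kept its proportion at levels of 5.71 to 7.36 RPKM for COL4A5. The RefSeq bases just before the COL4A5 start (GRCh38.p14, chrX:108439588-108439837, plus strand) are shown for comparison with the COL4A1-COL4A2 stretch, with capitals for CCAAT and CAGAC on either strand.

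COL4A5: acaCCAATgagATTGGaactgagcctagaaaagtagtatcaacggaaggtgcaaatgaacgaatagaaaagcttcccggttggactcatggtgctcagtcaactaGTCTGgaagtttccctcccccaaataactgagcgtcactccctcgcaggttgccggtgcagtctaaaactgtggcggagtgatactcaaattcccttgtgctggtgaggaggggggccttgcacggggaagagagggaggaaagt

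This stretch held CCAAT once on each strand and CAGAC once, on the minus strand. COL4A3 and COL4A4, the third head-to-head pair, encode the α3 and α4 chains of kidney and lung basement membranes. COL4A3 had 26, 31 and 32 reads across the vehicle cultures and 40, 24 and 26 across those given TGFβ, with a log2 fold change of -0.13 (-0.80 to 0.54). COL4A4 had 11 reads across the vehicle cultures and 7 across those given TGFβ and was not tested. The RPKM of COL4A2 relative to COL4A5 went from 0.00710 ± 0.00089 with vehicle to 0.0230 ± 0.0049 with TGFβ (SD, n = 3), so COL4A2 remained far below the α5 chain.

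**Figure D3:**
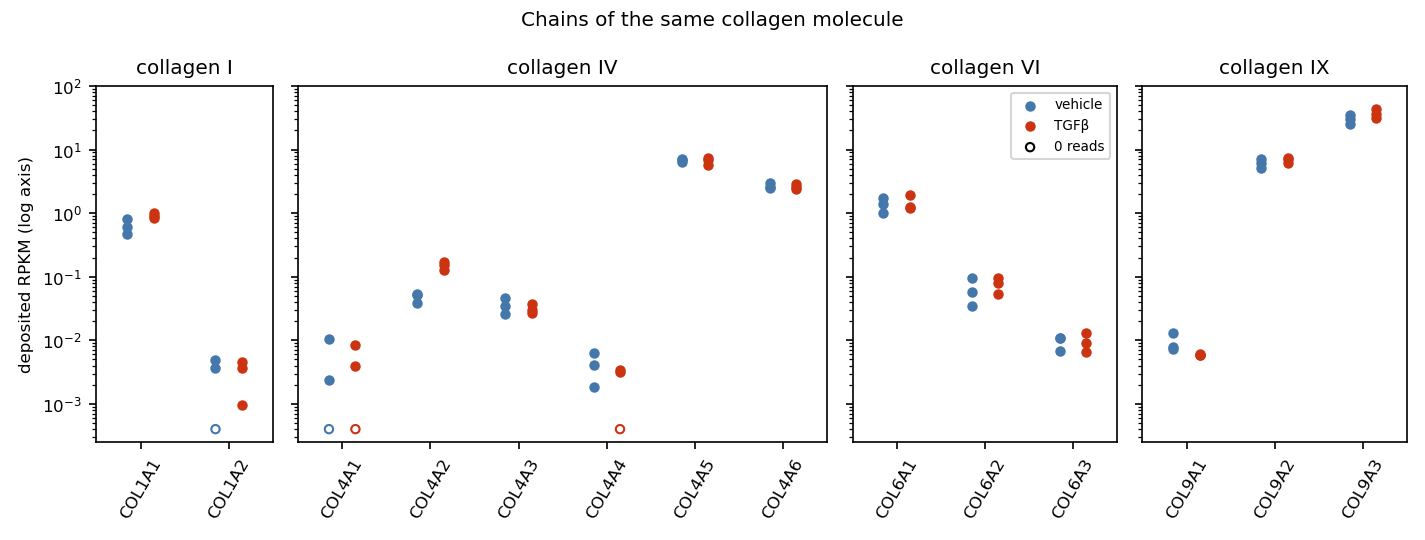
Deposited RPKM (log axis) of the chains of collagen I, IV, VI and IX, with 1 point per culture (blue, vehicle; red, TGFβ; open circles, 0 reads). In collagen I, VI and IX 1 chain is far above another chain of the same molecule, as with COL1A1 over COL1A2, and in collagen IV the red points of COL4A2 stand above the blue while those of the other chains overlap.

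Among fibrillar collagens, COL1A1 had the clearest higher values and COL5A2 the clearest lower ones, and both passed the FDR threshold only with the block. COL1A1 (ENSG00000108821, hg19 chr17:48260650-48278993, minus strand) encodes the α1 chain of collagen I, the main fibril protein of scar. It had 872, 443 and 455 reads across the vehicle cultures and 1190, 846 and 782 across those given TGFβ, or 9.88, 5.35 and 7.39 against 12.3, 10.5 and 10.7 CPM. The groups did not overlap, although vehicle culture 1 came close to TGFβ cultures 2 and 3. The log2 fold change was 0.57 (SE 0.20, interval 0.13 to 1.01, FDR 0.193), or 1.48-fold. With the block it was 0.60 (SE 0.12, FDR 0.00806), and leaving out single cultures without a block gave log2 fold changes from 0.36 (without vehicle culture 2, FDR 0.463) to 0.81 (without vehicle culture 1, FDR 0.0366), with the highest FDR, 0.481, without vehicle culture 3.

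COL1A2, the α2 chain that joins 2 α1 chains in collagen I, was almost silent. It had 6, 4 and 0 reads across the vehicle cultures and 6, 4 and 1 across those given TGFβ, and its RPKM was at most 0.00795 of that of COL1A1 in any culture. The collagen I RNA of these cells was therefore that of the α1 chain.

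COL5A2 (ENSG00000204262, hg19 chr2:189896622-190044605, minus strand) encodes a chain of collagen V, which forms the core of collagen I fibrils. Its reads were 139, 102 and 93 with vehicle and 110, 67 and 46 with TGFβ. In CPM these were 1.57, 1.23 and 1.51 against 1.14, 0.833 and 0.631, without overlap between the groups. The log2 fold change was -0.72 (SE 0.25, interval -1.27 to -0.17, FDR 0.191), and with the block -0.73 (FDR 0.0414). The difference was larger in culture 3, with a log2 ratio of -1.26, than in cultures 1 and 2, with -0.47 and -0.56. Culture 3 was run on different lanes with vehicle and with TGFβ, and a part of the lanes was not tested. Leaving out single cultures without a block gave log2 fold changes from -0.97 to -0.55, none past the threshold (FDR 0.0832 to 0.474). COL5A1, the major chain of collagen V, was lower in level and uneven, with 13, 6 and 2 reads against 17, 4 and 21, and its log2 fold change of 0.93 had an interval of -0.53 to 2.38.

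COL3A1, which encodes the collagen of reticular fibers and lies 19149 bases from COL5A2 on the opposite strand, was near the limit of detection. It had 0, 2 and 4 reads across the vehicle cultures and 14, 6 and 2 across those given TGFβ, so the groups overlapped. The scaled ratio of summed reads was 3.41 (1.34 to 10.3, counting error only), with most of the TGFβ reads in culture 1, and the gene was not tested.

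The fibrillar collagens with the most RNA did not pass the test. COL27A1, a fibrillar chain of cartilage, had 159, 166 and 153 CPM with vehicle and 186, 169 and 128 with TGFβ, with a log2 fold change of 0.01 (-0.26 to 0.29). COL2A1, the main collagen of cartilage, had 18.2, 9.67 and 19.1 CPM with vehicle and 20.3, 10.5 and 18.4 with TGFβ. The low values were those of culture 2 in both groups, so its values varied with the culture number in both groups alike. Its SE fell from 0.28 without the block to 0.075 with it, and the log2 fold change was 0.07 in both. COL24A1 and COL11A2 had at most 29 and 49 reads in any culture, and their intervals ran from -0.63 to 1.08 and from -0.67 to 1.08. COL5A3 and COL11A1 had 29 and 3 reads over the 6 cultures.

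**Figure D4:**
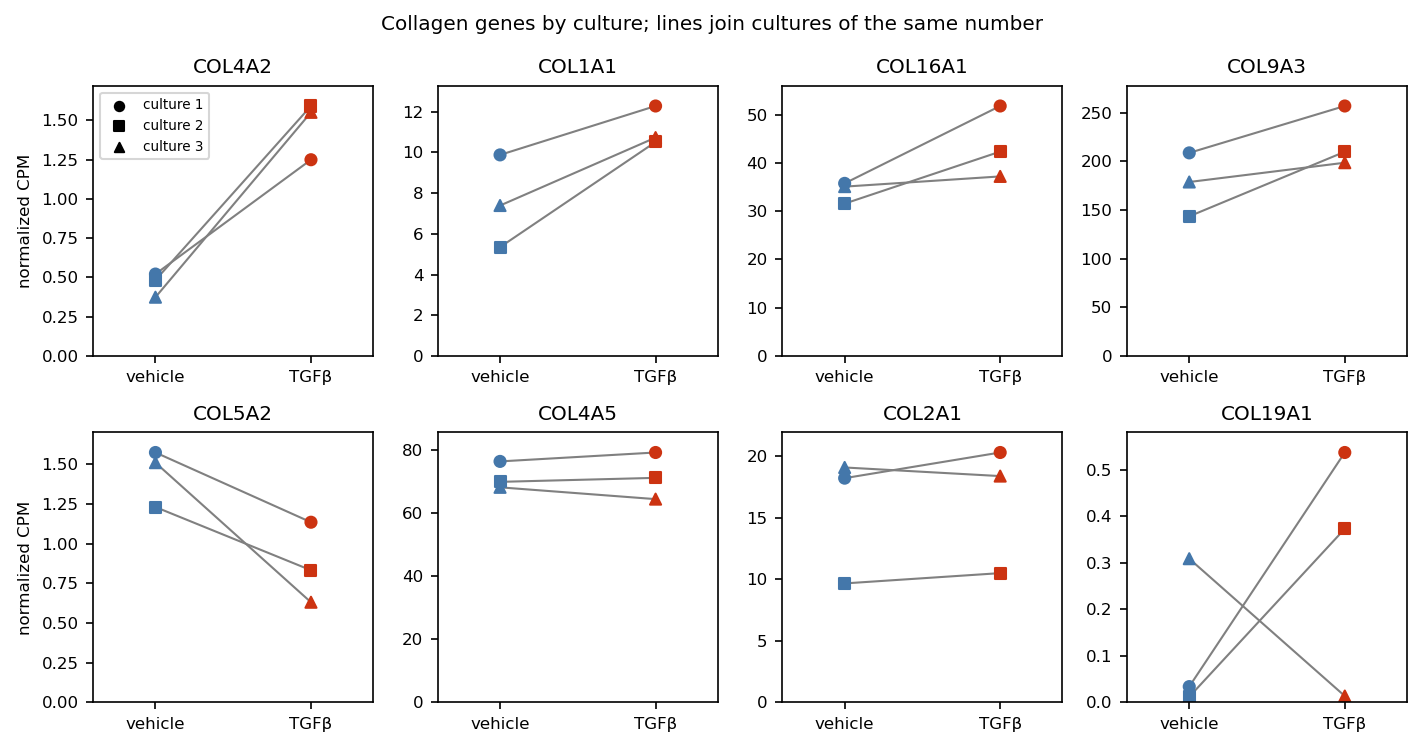
Normalized CPM of 8 collagen genes in each culture, with lines joining the vehicle and TGFβ cultures of the same number (circle, culture 1; square, culture 2; triangle, culture 3; every axis starts at 0). The lines of COL4A2, COL1A1, COL16A1 and COL9A3 all go up and those of COL5A2 all go down, those of COL4A5 are nearly flat, COL2A1 differs by number, and COL19A1 goes up in 2 cultures and down in culture 3.

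Of the collagens of other types, COL16A1 and COL9A3 passed the threshold with the block, and both belong to the FACIT group, which sits on the surface of fibrils. COL16A1 (ENSG00000084636, hg19 chr1:32117848-32169920, minus strand) had 35.7, 31.5 and 35.1 CPM with vehicle and 51.8, 42.3 and 37.2 with TGFβ. The groups did not overlap, but TGFβ culture 3 was only just above the highest vehicle culture. The log2 fold change was 0.36 (SE 0.12, FDR 0.163), and 0.35 with the block (FDR 0.0188). Leaving out single cultures without a block gave log2 fold changes from 0.22 (without TGFβ culture 1, FDR 0.505) to 0.46 (without TGFβ culture 3, FDR 0.0396), and the other 4 such fits did not pass, with FDR from 0.195 to 0.478. RP11-73M7.6, a gene on the opposite strand that overlaps COL16A1 by 7692 bases, had a log2 fold change of 0.03 (FDR 0.982).

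The 250 RefSeq bases before the COL16A1 start (GRCh38.p14, chr1:31704018-31704267, written 5′ to 3′ on the minus strand) are shown because this is the best expressed collagen with both groups apart. Capitals mark CAGAC and GGGCGG.

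COL16A1: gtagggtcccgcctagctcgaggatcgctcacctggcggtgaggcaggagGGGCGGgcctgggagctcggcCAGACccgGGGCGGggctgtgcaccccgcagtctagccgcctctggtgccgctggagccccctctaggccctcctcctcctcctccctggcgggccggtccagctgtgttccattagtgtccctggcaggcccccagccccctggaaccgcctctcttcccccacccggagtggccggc

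COL9A3 (ENSG00000092758, hg19 chr20:61447596-61472511, plus strand) encodes the α3 chain of collagen IX, a FACIT collagen of cartilage, and was second in level among all collagens. It had 209, 144 and 179 CPM with vehicle and 257, 210 and 199 with TGFβ. The groups overlapped, since vehicle culture 1 was close to TGFβ culture 2 and above TGFβ culture 3, but each TGFβ culture was above the vehicle culture of its number. The log2 fold change was 0.33 (SE 0.14, FDR 0.332), and 0.33 (SE 0.070, FDR 0.0113) with the block. Leaving out single cultures without a block gave 0.19 (without vehicle culture 2) to 0.45 (without vehicle culture 1), none past the threshold. COL9A2, the α2 chain, had a log2 fold change of 0.18 (-0.12 to 0.48) and an FDR of 0.0774 with the block. COL9A1, the α1 chain, had 18 reads across the vehicle cultures and 13 across those given TGFβ, and its RPKM was at most 0.000434 of that of COL9A3. Of the 3 chains of collagen IX, the RNA thus covered α3 and, at 0.168 to 0.236 of its RPKM, α2.

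COL18A1, whose protein of basement membranes carries the endostatin fragment, had the highest level of all collagens, 32.8 ± 5.20 RPKM with vehicle and 37.3 ± 7.73 with TGFβ (SD, n = 3). The log2 fold change was 0.22 (SE 0.15, FDR 0.656), and 0.21 (FDR 0.0668) with the block. Its ratio in culture 3 was near 1, at a log2 value of 0.0050, and in cultures 1 and 2 the log2 ratios were 0.27 and 0.37. It overlaps SLC19A1 on the opposite strand by 20149 bases, and SLC19A1 had a log2 fold change of 0.11 (FDR 0.830). COL7A1, the collagen of anchoring fibrils, had 5.60, 4.42 and 4.86 CPM with vehicle and 6.15, 6.64 and 5.20 with TGFβ, and a log2 fold change of 0.27 (-0.06 to 0.61).

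Collagen VI is built from an α1, an α2 and an α3 or related chain, and here their levels were far apart. COL6A1 had 1.36 ± 0.355 RPKM with vehicle and 1.46 ± 0.402 with TGFβ, with a log2 fold change of 0.14 (-0.37 to 0.66). COL6A2, 93046 bases away on the same strand, had between 0.0345 and 0.0776 of the RPKM of COL6A1, and COL6A3 between 0.00520 and 0.00787. Neither passed the test, with log2 fold changes of 0.31 (-0.54 to 1.15) and 0.05 (-0.77 to 0.86).

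The remaining tested genes were COL26A1, COL28A1, COL8A2, COL8A1 and COL19A1. COL26A1, at 2.23 ± 0.300 and 2.32 ± 0.357 RPKM, had a log2 fold change of 0.09 (-0.24 to 0.43). COL28A1, COL8A2 and COL8A1 had log2 fold changes of 0.07, 0.08 and -0.46, none past an FDR of 0.05. COL19A1, a FACIT collagen, had 3, 1 and 19 reads across the vehicle cultures and 52, 30 and 1 across those given TGFβ. Cultures 1 and 2 thus went opposite to culture 3, and the log2 fold change of 1.58 had an SE of 1.02 (FDR 0.610). This gene is outside the rule for named genes and was chosen after its values were seen.

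Another 11 genes of other types had reads but were not tested, with between 1 and 48 reads over the 6 cultures. COL10A1 was the highest of them, with 17, 14 and 2 reads across the vehicle cultures and 7, 4 and 4 across those given TGFβ (scaled ratio 0.423, 0.213 to 0.800, counting error only). The groups overlapped in vehicle culture 3, and the gene overlaps the far more abundant NT5DC1 on the opposite strand by 39825 bases. COL12A1 had 22 reads in each group. The other 9 (COL9A1, COL6A6, COL21A1, COL17A1, COL14A1, COL20A1, COL13A1, COL15A1 and COL23A1) had at most 7 reads in any culture.

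The genes whose products fold, cut, cross-link or bind collagen were described from a list of 47, of which 43 were tested. At an FDR under 0.05, 4 of the 43 rose (9.30%, beside 3.11% of all genes) and 0 fell, and 0 also fell with DESeq2, limma-voom or edgeR's exact test. At an unadjusted p under 0.05 by edgeR's quasi-likelihood test 6 were higher and 3 lower, beside 8.69% and 4.97% of all genes. The list's median log2 fold change was 0.07. With the block 8 were called, 7 higher and 1 lower, beside 8.08% and 3.75% of all genes.

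Of the 5 cross-linking enzymes of the list 2 were higher, beside 3.11% of all genes. LOXL4, a lysyl oxidase that joins collagen and elastin chains, had 41.9, 36.5 and 36.6 CPM with vehicle and 67.1, 71.9 and 67.5 with TGFβ (log2 fold change 0.84, SE 0.08, FDR 0.000385). LOX, the founding member of that family, had 6.56, 9.41 and 7.02 CPM with vehicle and 13.0, 15.5 and 11.6 with TGFβ (log2 fold change 0.80, SE 0.16, FDR 0.0216). The groups of both genes lay apart. LOX missed the threshold when vehicle culture 1, vehicle culture 3 or TGFβ culture 2 was left out, with FDR 0.0802, 0.114 and 0.103. LOXL1, LOXL2 and LOXL3 had log2 fold changes of 0.14, 0.15 and 0.17 and did not pass.

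PLOD2, the lysyl hydroxylase of collagen telopeptides, was the modifying enzyme that rose, from 128, 145 and 132 CPM to 201, 215 and 174 (log2 fold change 0.54, SE 0.09, FDR 0.00907, and 0.0577 without vehicle culture 3). PLOD1 and PLOD3 had log2 fold changes of 0.03 and 0.11 and did not pass. P4HA1, P4HA2, P4HA3 and P4HB, which hydroxylate proline so that the helix is stable, had values of -0.07, 0.12, 0.20 and 0.07. SERPINH1, the collagen chaperone also called HSP47, had a log2 fold change of 0.05 (-0.11 to 0.21).

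Among receptors, DDR1, a tyrosine kinase activated by collagen, rose from 59.7, 53.7 and 49.2 CPM to 109, 117 and 97.2 (log2 fold change 0.99, SE 0.10, FDR 0.000424). DDR2 had 0.61 ± 0.28 CPM with vehicle and 0.59 ± 0.15 with TGFβ and did not pass. ITGA1 and ITGA2, α chains of collagen-binding integrins with ITGB1, were higher with the block only, by log2 fold changes of 0.27 (FDR 0.00815) and 0.21 (FDR 0.0317). ITGA10, another such α chain of the list, went the other way, from 2.22, 2.29 and 2.27 CPM to 1.53, 1.83 and 1.71. Its log2 fold change was -0.42 (FDR 0.272, and 0.109 with the block), so it did not pass. BMP1, which removes the C-propeptide of fibrillar procollagens, was also higher with the block only (0.38, FDR 0.00439), and P3H4, listed under the older symbol LEPREL4, was lower with it (-0.19, FDR 0.0439).

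**Figure D5:**
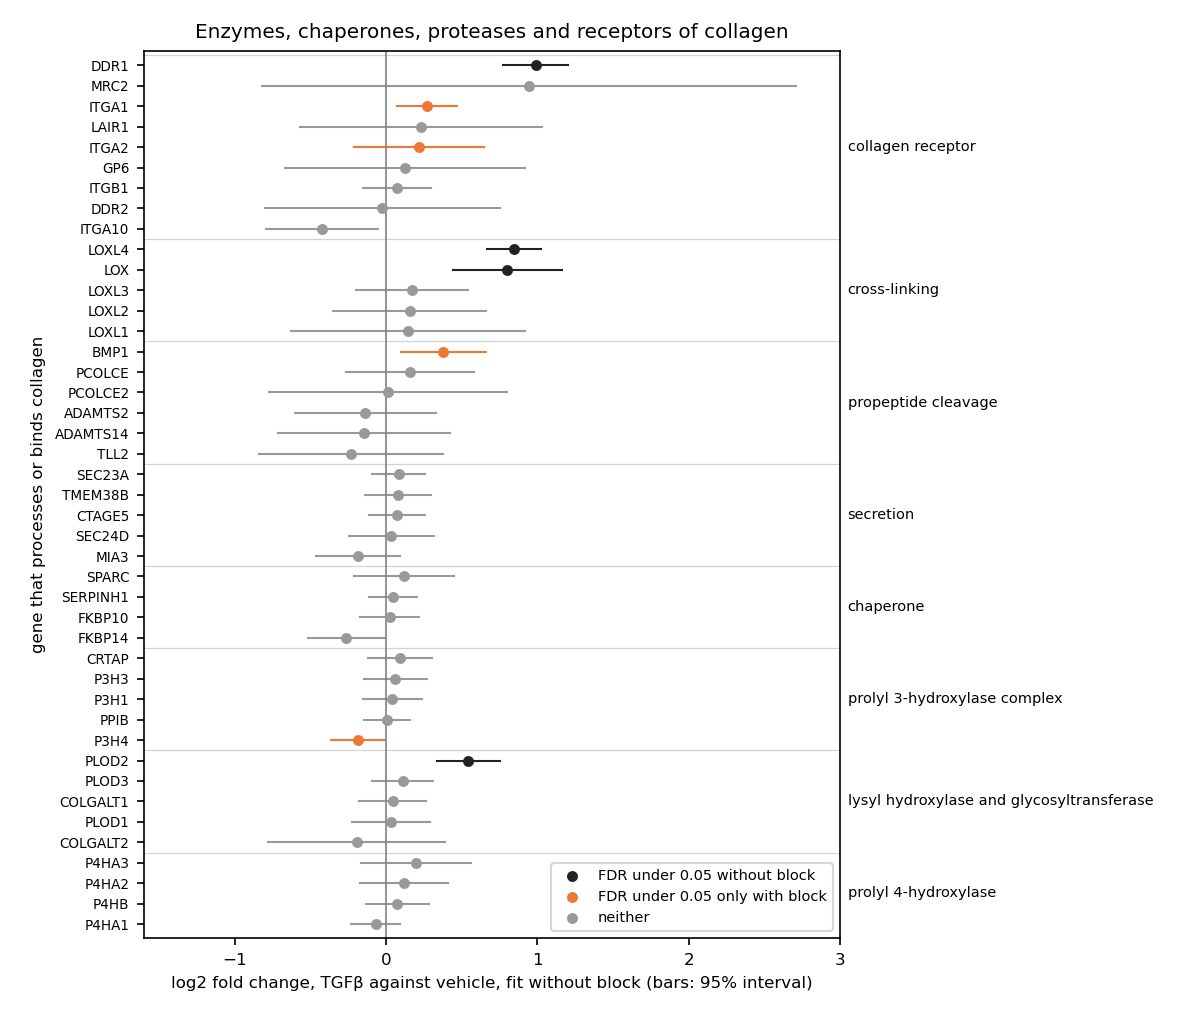
Log2 fold change (TGFβ against vehicle, model without a block) with its 95% interval for the 43 tested genes that modify, fold, secrete, cut, cross-link or bind collagen, grouped by role. Black points (DDR1, LOXL4, LOX, PLOD2) passed an FDR of 0.05 without the block, and orange points only with it. The others passed in neither model, and of these the intervals of ITGA10 and FKBP14 lie below 0.

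TGFβ treatment and cell identity were checked with marker genes. The TGFβ targets PMEPA1, SKIL and SMAD7 rose, 3 of 3, with log2 fold changes of 4.30, 2.45 and 1.72. All 8 hepatocyte markers were tested. By edgeR's quasi-likelihood test 0 changed at an FDR under 0.05, beside 4.12% of all genes. At an unadjusted p under 0.05 there were also 0, beside 13.7% of all genes. The counts were 0 with DESeq2, limma-voom and edgeR's exact test too. With the block 2 (TTR and FGB) were lower, beside 3.75% of all genes. Of 10 listed fibroblast or stellate cell markers, LUM, THY1, POSTN and FAP had 2, 9, 0 and 1 reads in all 6 cultures. PDGFRA had 24 and DCN had 29. The list's summed level was nearly all FBLN1, TAGLN and ACTA2. It was 256 to 275 CPM with vehicle and 285 to 344 with TGFβ, without overlap. Within each of these 3 genes the groups overlapped, with log2 fold changes of 0.12 (FDR 0.672), 0.31 (FDR 0.526) and -0.018 (FDR 0.958). PDGFRB had a log2 fold change of 1.22 (FDR 0.0582, and 7.25e-06 with the block). The part of these differences in the collagen values was not tested. Of 5 leukocyte markers, CD3E and MS4A1 had 0 reads, PTPRC 1 and ITGAM 33 over the 6 cultures, and CD14 had 1244 reads (log2 fold change 0.35, FDR 0.674). The summed leukocyte level, nearly all of it CD14, was 1.64 to 3.14 CPM with vehicle and 2.25 to 3.56 with TGFβ. The endothelial marker KDR had 0 reads, and the summed endothelial level was 0.205 to 0.272 CPM with vehicle and 0.217 to 0.236 with TGFβ.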

How the data were processed

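RNA from 3 vehicle and 3 TGFβ cultures of HepG2 was prepared with TruSeq v2 and sequenced as paired reads by the authors, who aligned it to hg19 and counted reads per gene with MAPRseq. Per the labels, bcl2fastq, TopHat2 2.0.6 and HTSeq were used. The authors deposited raw counts, used here for all tests, and RPKM, used for levels between genes, beside the coding length. How reads on overlapping genes were counted, whether strand was used and which annotation served are not given in these sources. Groups and culture numbers came from the sample labels.

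Counts were normalized by TMM, filtered with filterByExpr (22747 genes kept) and compared with the robust quasi-likelihood test of edgeR 4.0.16 (limma 3.58.1, R 4.3.3), with Benjamini-Hochberg adjustment over all kept genes. Each standard error was derived from the F statistic. The steps were run on simulated counts that held no effect of the culture number, so the pairing was not tested there. The study's methods call the sequenced samples biological replicates. The labels do not say how the cultures were kept apart, and p-values measure the spread between these cultures. Cultures within a group differed beyond counting noise, so each was 1 sample. The deviations of same-numbered cultures correlated at 0.366, 0.227 and 0.316 across genes, against at most 0.0101 for different numbers. Deviations within a group cancel out, so positive values for same numbers force those for different numbers down. The values for different numbers are therefore not separate evidence of pairing. The numbers were treated as pairs in the block model only, and its results are given beside those of the model without it. Genes without enough reads to test are given as counts, with an exact interval of the ratio.

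The text names each collagen gene past the threshold with or without the block, the 8 of highest RPKM, those without overlap between groups and a fixed set of well-known chains (types 1 to 7 and 18), and the collagen-processing genes past the threshold. Members and gene lists were chosen with earlier results of these data known. Alternatives were scaling by DESeq2's size factors or by total counts, testing without a filter or with at least 10 counts in every culture, DESeq2 1.42.0, limma-voom, edgeR's exact test, the block, leaving out each culture, the cultures on the same lane as their partner, and limma on log2(RPKM + 0.1) and log2(RPKM + 0.01). PECAM1 was listed as an endothelial marker and is not analysed here. A gene that was examined is not reported here.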

Additional observations from a re-analysis of the deposited data

How the results depend on the processing

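With the replicate block, which uses the pairing of the culture numbers, 5 collagen genes changed (4 higher, 1 lower) in place of 1, 8 collagen-processing genes in place of 4, and 2690 of all genes in place of 937. With cultures 1 and 2 alone, each pair on 1 lane, 2 collagen genes (COL4A2 and COL19A1) and 399 of all genes changed, and with DESeq2's Wald test 1415 of all genes. Leaving out each culture gave 1 to 2 collagen genes, 2 to 4 collagen-processing genes and 485 to 998 of all genes. COL4A2 passed in all 17 alternatives, with log2 fold changes of 0.75 (on log2(RPKM + 0.1)) to 1.75 and FDR of at most 0.0447. Requiring a mean of 1 RPKM in a group left 10 of the 24 testable collagen genes. LOX and PLOD2 missed the threshold with log2(RPKM + 0.1), at FDR 0.147 and 0.0938, and with log2(RPKM + 0.01), at FDR 0.135 and 0.0919. LOX also missed it with cultures 1 and 2 alone, at FDR 0.104. The block changed no other call of a named collagen gene.

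Of 303 values of 18 named collagen genes under alternatives, 259 kept their direction and side of the threshold, 6 passed it in addition and 38 turned sign, all in genes that had not passed. COL4A5 had log2 fold changes of -0.00014 with DESeq2's size factors, -0.040 with total-count scaling, -0.021 without filter, -0.00014 with DESeq2, -0.00027 with limma-voom, -0.00041 with the block and -0.039 on both RPKM scales. COL27A1 had -0.031 with total-count scaling, -0.011 without filter, -0.0022 with limma-voom, -0.0027 with the block and -0.042 on both RPKM scales. COL6A3 had -0.0010 and -0.010 on the RPKM scales with the larger and the smaller pseudocount, and COL4A3 had 0.10 with cultures 1 and 2 alone. Leaving out each culture gave -0.11 to 0.15 for COL27A1, -0.082 to 0.065 for COL4A5, -0.071 to 0.074 for COL4A6, -0.028 to 0.20 for COL26A1, -0.19 to 0.30 for COL2A1, -0.11 to 0.34 for COL6A1, -0.0098 to 0.78 for COL6A2, -0.32 to 0.10 for COL4A3 and -0.26 to 0.22 for COL6A3. The cause was not tested. With 3 cultures a group, exact permutation tests cannot give p below 0.1, and counting alone left wide intervals for the untested genes, 0.491 to 1.76 for the ratio of COL12A1 with 22 reads in each group.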

Other observations

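COL6A4P1, a pseudogene of the collagen VI family outside the 44 genes, had 30, 26 and 9 reads across the vehicle cultures and 11, 12 and 13 across those given TGFβ. The groups overlapped, and the log2 fold change was -0.90 (SE 0.39, FDR 0.350 by edgeR's quasi-likelihood test, and 0.219 with the block). With cultures 1 and 2 alone, COL19A1 had a log2 fold change of 4.21 (SE 0.58, FDR 0.0169), while 1.50% of all tested genes were called higher in that comparison. In culture 3, run on different lanes in the 2 groups, its log2 ratio was -4.49. COL19A1 was chosen after its values were seen, and a part of the lanes in this was not tested. COL18A1-AS1, antisense inside COL18A1, had 10, 10 and 9 reads across the vehicle cultures and 19, 19 and 13 across those given TGFβ (log2 fold change 0.69, SE 0.34, FDR 0.432).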
